A study of Mus musculus with 9 samples.

Results

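Pi16, Dpp4, Ly6a, Cd34, Clec3b, Htra3, Medag, Dpep1, Gsn and Dpt, 10 genes used as markers of resting and adventitial fibroblasts, were followed in the pressure-overloaded mouse heart. Their probe sets were all those that the array's annotation pairs with exactly 1 gene symbol equal to a listed name, 22 of 45101 probe sets, which belonged to 9 of the 10 listed genes. Ly6a was not analysed here, since no probe set has it as its only symbol in the annotation used. Probe sets with several symbols were left out. RNA came from the left ventricle of male C57BL/6 mice taken 6 weeks after surgery, with transaortic constriction (TAC, which narrows the aorta and loads the ventricle) on 4 arrays and sham surgery on 5 arrays. The labels name no transgene, drug or other treatment in either group, and give no age.

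Fibroblasts of the heart lie between the cardiomyocytes and in the sheath around vessels, the adventitia. In mouse tissues, fibroblasts that carry Pi16 and Dpp4 sit mainly in adventitial niches and are regarded as a reserve population, while Cd34 and Ly6a mark these cells and also endothelium. After injury, fibroblasts switch on a matrix program marked by genes such as Postn and Cthrc1. Whole ventricular tissue was measured, so fewer cells of a type and less RNA per cell cannot be told apart.

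Values are log2 RMA values, in which a difference of 1 is a doubling of signal, and differences are TAC minus sham from a limma fit over all 18193 genes, with the probe set of highest mean standing for each gene. A gene was called at a Benjamini-Hochberg adjusted p below 0.05. Of the 9 measured markers 3 rose (Pi16, Medag and Cd34), 3 fell (Dpep1, Clec3b and Htra3) and 3 did not pass (Dpp4, Dpt and Gsn). Over all genes 25.1% were called, 12.8% as higher and 12.3% as lower. The markers' median difference was -0.006865, against -0.003825 for all genes, with a range of -0.85 to 1.69. TAC and sham values did not overlap for the 6 called markers, against 25.2% of all genes. By the role assigned here, of 3 surface markers (Pi16, Cd34 and Dpp4) 2 rose and 1 did not pass. Of 4 secreted or partly secreted proteins 2 fell and 2 did not pass. The remaining pair was Medag, which rose, and Dpep1, which fell. Dpep1 also encodes a membrane protein, so the surface group does not hold every marker found at the membrane. The product of Pi16, which rose, can also be secreted, so the secreted group does not hold every secreted marker. Role was not tested against direction.

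All arrays shared the same median of 6.5661, because RMA gave them 1 distribution. Pairs of TAC arrays correlated across genes at 0.995 to 0.997 and pairs of sham arrays at 0.987 to 0.997, and a TAC array with a sham array at 0.974 to 0.988. Sham replicate 2 was the lowest sham array for Pi16, Cd34 and Clec3b, so values without it are given with those genes. It was not low across all markers, being the highest sham array for 2 of them. Sham replicate 1 was likewise the lowest sham array for 3 markers. The 8 cardiomyocyte genes read as a list were bright, each averaging at least 13.16. They include genes not limited to the ventricle, such as Myh6 and Ttn, so their brightness does not separate ventricle from atrium. Of 4 atrial markers 3 lay below the array median by their mean over all arrays (the measure used for every list here). The label is left ventricle. Nothing in the labels says in so many words that each array is a separate animal, so each p-value reflects only how these samples spread, which may be technical.

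Sequence upstream of the start is shown for called markers, because these genes moved in different directions. Only those whose annotated promoter window is not wholly inside the gene's span are included. Bases inside the span were left out, which shortened the windows of Pi16 and Htra3. The bases are from RefSeq (GRCm38.p6), 5′ to 3′ on the gene's strand, in lower case, and capitals mark matches to 1 of 4 motifs searched on both strands. The motifs were TGANTCA (AP-1), GGAATG (TEAD), CAGACA (SMAD) and CAGCTG (an E-box), and none overlapped another in these windows.
Pi16, chr17:29318632-29318795, plus strand: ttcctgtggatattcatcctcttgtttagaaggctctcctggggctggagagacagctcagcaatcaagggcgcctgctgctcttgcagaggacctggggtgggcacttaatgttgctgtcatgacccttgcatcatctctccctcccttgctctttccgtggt
Cd34, chr1:194938571-194938820, plus strand: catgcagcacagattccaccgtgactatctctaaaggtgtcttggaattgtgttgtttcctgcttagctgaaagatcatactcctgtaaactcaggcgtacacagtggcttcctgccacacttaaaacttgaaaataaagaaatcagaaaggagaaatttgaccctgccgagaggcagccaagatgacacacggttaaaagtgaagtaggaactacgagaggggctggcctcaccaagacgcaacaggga
Dpep1, chr8:123185985-123186234, plus strand: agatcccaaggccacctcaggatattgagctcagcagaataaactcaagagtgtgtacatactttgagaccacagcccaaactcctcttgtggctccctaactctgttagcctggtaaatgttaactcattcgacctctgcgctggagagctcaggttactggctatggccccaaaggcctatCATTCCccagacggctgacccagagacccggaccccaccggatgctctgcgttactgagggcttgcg
Htra3, chr5:35679814-35680030, minus strand: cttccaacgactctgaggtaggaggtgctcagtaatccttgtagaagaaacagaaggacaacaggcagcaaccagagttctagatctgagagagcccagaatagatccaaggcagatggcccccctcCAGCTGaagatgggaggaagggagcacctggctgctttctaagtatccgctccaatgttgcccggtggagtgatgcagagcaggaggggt

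The promoter table held 11 windows for 8 of the 9 measured markers, and motifs were counted in the 250 bases before each start. These counts include bases inside a gene's span. The Medag windows and windows 2 and 3 of Gsn lie inside it, among them the window with the SMAD match and 1 Gsn window with an E-box. An AP-1 match was found in 0 of the 11 windows, against 6.75% of all 32851 windows in the table. TEAD matches were found in Dpep1, which fell, and Dpp4, which did not pass, against 12.6% of all windows. The SMAD match was in 1 window of Medag, which rose, against 17.1%. E-box matches were in 4 windows, those of Dpt, Gsn and Htra3, against 13.0%. The windows of Pi16 and Cd34, which both rose, held none of the 4 motifs. A match describes letters in the window and is not a binding site.

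**Figure D1:**
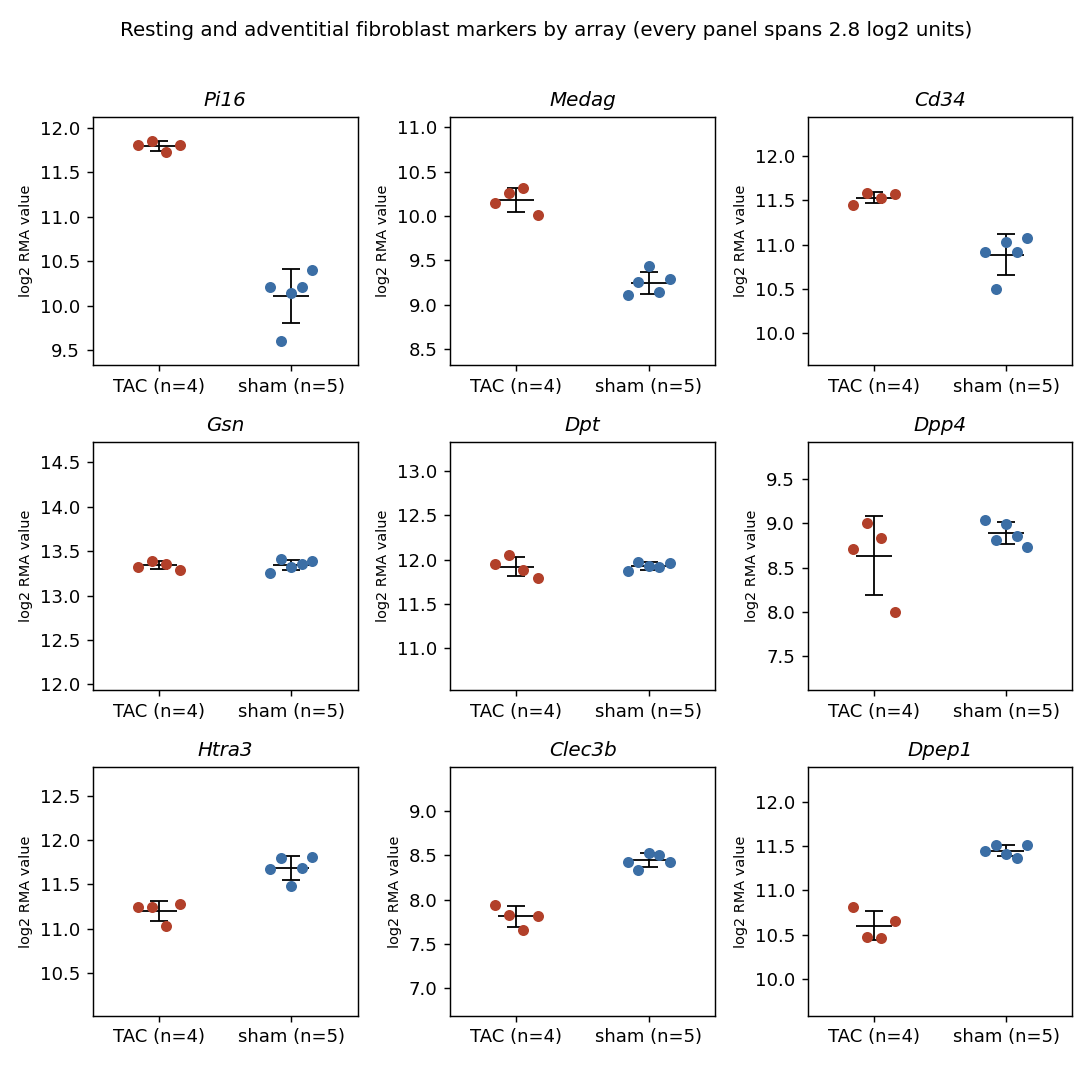
Log2 RMA values of the 9 measured markers, a panel per gene ordered by difference, with a point per array (TAC left, n = 4, sham right, n = 5) and black bars for the mean ± SD. The groups do not overlap in the first 3 panels, where TAC is higher, nor in the last 3, where TAC is lower. They overlap in the middle row.

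Pi16 encodes a peptidase inhibitor of the CAP superfamily that is secreted or held at the cell surface. In mouse it has been reported to restrain hypertrophic growth of cardiomyocytes, a role not tested here. Pi16 had the largest difference of the 9 markers. Its brightest probe set (1453839_a_at) read 11.80, 11.86, 11.73 and 11.81 in the 4 TAC arrays, against 10.21, 9.60, 10.14, 10.21 and 10.40 in the 5 sham arrays. The TAC arrays lay within 0.13 of each other and every one exceeded the highest sham array, by at least 1.33. Pi16 thus rose by 1.69 (SE 0.14, 95% confidence interval 1.38 to 1.995, limma adjusted p = 2.02e-05), which is 3.22-fold. The SD was 0.05 in TAC (n = 4) and 0.30 in sham (n = 5). Without sham replicate 2 the sham SD was 0.11 and the difference 1.56. A dimmer probe set of Pi16 (1422026_at) averaged 7.69 in TAC and 6.49 in sham, and it also rose, by 1.20 (limma adjusted p over all probe sets = 0.000118).

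Cd34 encodes a sialomucin of the cell surface, found on adventitial fibroblasts, endothelial cells and blood progenitors. The TAC arrays read 11.45, 11.58, 11.52 and 11.57 for Cd34, against 10.91, 10.50, 11.03, 10.92 and 11.08 in the sham arrays. The groups did not overlap, and sham replicate 2 was again the lowest array. Cd34 rose by 0.64 (SE 0.11, 95% confidence interval 0.40 to 0.89, limma adjusted p = 0.00186), which is 1.56-fold, and by 0.54 without sham replicate 2. The sham SD was 0.23 with that array and 0.08 without it.

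Because endothelium also carries Cd34, 12 endothelial genes were read beside it. Vwf, the von Willebrand factor gene, rose by 0.44 (limma adjusted p = 0.00527), Kdr, a VEGF receptor gene, fell by 0.25 (limma adjusted p = 0.0284), and the other 10 did not pass. Their median difference was -0.10, and the mean of the list was 10.19 to 10.32 on TAC arrays and 10.12 to 10.46 on sham arrays, overlapping ranges. None of the 12 genes lay below the array median. Podxl, which encodes podocalyxin, a relative of the CD34 protein, differed by 0.14 and did not pass (limma adjusted p = 0.380), while the dim relative Podxl2 fell by 0.47 (limma adjusted p = 0.00929).

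Dpp4 encodes a cell surface peptidase that trims chemokines such as CXCL12 and incretin hormones. Its brightest probe set (1416697_at) read 8.70, 9.01, 8.83 and 7.998 in TAC, against 9.03, 8.81, 8.99, 8.85 and 8.74 in sham. TAC replicate 4 was below every other array, and the other 3 TAC arrays lay inside or next to the sham range. The difference of -0.25 (SE 0.18, 95% confidence interval -0.64 to 0.14) did not pass (limma adjusted p = 0.349), and it was -0.04 without TAC replicate 4. The 3 dimmer probe sets of Dpp4 differed by -0.27, -0.10 and 0.02, and none passed. Fibroblast chemokine gene Cxcl12, whose product DPP4 cuts, fell by 0.45 (limma adjusted p = 0.00596). Dpp4 is also carried by lymphocytes, whose markers Cd3e, Cd4 and Cd8a averaged 5.54, 5.92 and 5.99 in TAC and 5.70, 5.95 and 5.87 in sham, all below the array median of 6.5661.

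Dpep1 encodes a membrane dipeptidase that splits leukotriene D4 and cysteinylglycine. It showed the largest fall among the markers. Values of the brighter probe set (1435943_at) were 10.81, 10.48, 10.46 and 10.66 in TAC, against 11.44, 11.51, 11.41, 11.37 and 11.52 in sham. Every TAC array was at least 0.56 below every sham array. Dpep1 fell by 0.85 (SE 0.08, 95% confidence interval -1.03 to -0.66, limma adjusted p = 5.64e-05) and was 1.80-fold lower. Its second probe set gave nearly the same difference, -0.89 (limma adjusted p over all probe sets = 0.000102). Dpep3, the other dipeptidase gene measured, was dim and did not pass (0.03, limma adjusted p = 0.802).

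Medag, a gene known in mouse for promoting the differentiation of preadipocytes, went the other way. The TAC arrays read 10.14, 10.26, 10.32 and 10.02 at its brighter probe set (1426937_at), against 9.12, 9.26, 9.43, 9.15 and 9.29 in the sham arrays. The lowest TAC array was 0.58 above the highest sham array. Medag rose by 0.94 (SE 0.09, 95% confidence interval 0.74 to 1.13, limma adjusted p = 4.46e-05), which is 1.92-fold, and by 0.96 at its other probe set (limma adjusted p over all probe sets = 0.000146). Adipocyte genes did not move with it: in limma 0 of 6 measured were called and 1 had an unadjusted p below 0.05. With Adipoq, the adiponectin gene, at 3.51 in TAC and 3.89 in sham, 5 of those 6 lay below the array median, Fabp4 being the exception.

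Clec3b encodes tetranectin, a secreted C-type lectin that binds plasminogen. Its only probe set (1449466_at) read 7.94, 7.83, 7.65 and 7.81 in TAC, against 8.42, 8.33, 8.53, 8.50 and 8.43 in sham. Each TAC array was below each sham array, by 0.39 at the closest. Clec3b fell by 0.63 (SE 0.07, 95% confidence interval -0.80 to -0.47, limma adjusted p = 0.000185) and was 1.55-fold lower. Without sham replicate 2, the lowest sham array here too, the difference was -0.66. Clec11a, another secreted C-type lectin gene, rose by 1.29 (limma adjusted p = 2.90e-05).

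Htra3 encodes a secreted serine protease that dampens TGF-beta signalling in cultured cells. At its brightest probe set (1419292_at) it read 11.24, 11.24, 11.03 and 11.27 in TAC, against 11.67, 11.79, 11.48, 11.68 and 11.81 in sham. The groups were apart by 0.20. Htra3 fell by 0.49 (SE 0.09, 95% confidence interval -0.68 to -0.30, limma adjusted p = 0.00211) and was 1.403-fold lower. A second probe set fell by 0.41 (limma adjusted p over all probe sets = 0.0147), a call that ended without TAC replicate 3 (0.0531). The third was among the dimmest 4.31% of probe sets and did not pass, at 0.11. With the mean of the 3 probe sets in place of the brightest, Htra3 differed by -0.26 (limma adjusted p = 0.0225). Of its relatives, Htra1 fell by 0.69 (limma adjusted p = 9.58e-05), Htra4 rose by 1.49 (limma adjusted p = 0.000375) and the mitochondrial protease gene Htra2 did not pass (-0.05, limma adjusted p = 0.620).

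Dpt, which encodes dermatopontin, a small matrix protein that binds decorin and collagen fibrils, was among the steadiest of the markers. It read 11.96, 12.05, 11.88 and 11.80 in TAC, against 11.87, 11.97, 11.92, 11.91 and 11.96 in sham (1418511_at). The sham arrays lay inside the range of the TAC arrays. The difference was -0.01 (SE 0.07, limma adjusted p = 0.958), and the 95% confidence interval of -0.16 to 0.14 leaves out changes of the size seen in Pi16, Medag or Dpep1.

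Gsn encodes gelsolin, which severs actin filaments inside cells and circulates in plasma as a secreted form. Its brightest probe set (1437171_x_at) read 13.33, 13.39, 13.36 and 13.28 in TAC, against 13.25, 13.41, 13.32, 13.36 and 13.38 in sham. The groups overlapped throughout, with a difference of -0.00492 (SE 0.06, 95% confidence interval -0.14 to 0.13, limma adjusted p = 0.967). Of its 6 probe sets 4 averaged 13.19 or more, near the top of the array's scale, which ends at 14.799. Both dimmer probe sets, averaging 7.33 and 6.18, differed by 0.03 and 0.09, so none of the 6 passed in limma and 0 had an unadjusted p below 0.05. Capg, which encodes a relative of gelsolin that caps actin filaments without severing them, rose by 1.51 (limma adjusted p = 0.000639). The other gelsolin relatives Flii, Scin, Vil1 and Avil did not pass, and Svil rose by 0.21 (limma adjusted p = 0.0193).

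**Figure D2:**
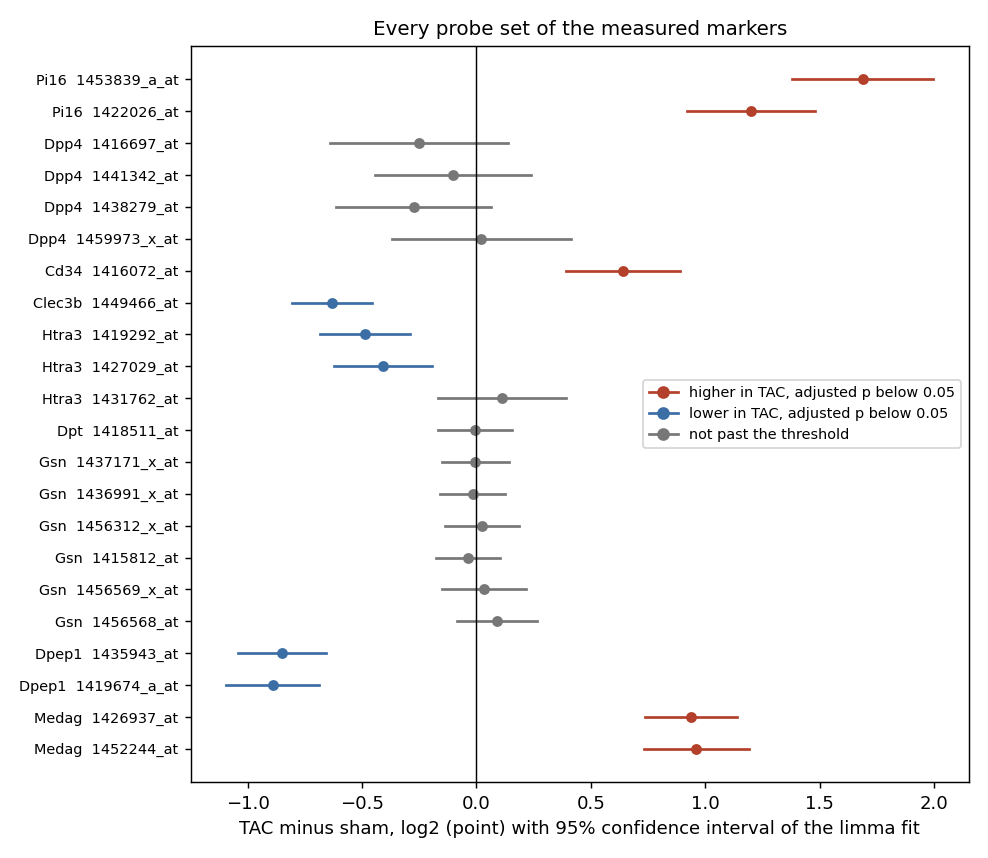
Difference between TAC and sham on the log2 scale for each of the 22 probe sets, as a point with the 95% confidence interval of the limma fit over all probe sets. Probe sets of 1 gene that passed share a direction, 5 being higher and 5 lower in TAC, and the 6 of Gsn and 4 of Dpp4 all have intervals that include 0.

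Across all 22 probe sets 5 rose, 5 fell and 12 did not pass. Over the 45037 probe sets without controls, 17.7% were called, 8.87% as higher and 8.86% as lower. Values of TAC and sham did not overlap for 10 of the 22, against 19.8% of all probe sets. Probe sets of 1 gene share a target and are not independent. Both probe sets of Pi16, Medag and Dpep1 went the same way, and the only called gene with a probe set on the other side of 0 was Htra3, at its dimmest.

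To see whether the markers moved with cardiac fibroblast RNA at large, each was set against Pdgfra, the receptor gene commonly used to mark cardiac fibroblasts, on the same array. At its brightest probe set Pdgfra read 10.78, 10.69, 10.72 and 10.54 in TAC, against 10.65, 10.63, 10.65, 10.61 and 10.67 in sham. The groups overlapped, and the difference of 0.04 (SE 0.06) did not pass (limma adjusted p = 0.698). Its dimmer probe sets differed by 0.36 (limma adjusted p over all probe sets = 0.0489) and 0.22 (0.292). Tcf21, a transcription factor gene of cardiac fibroblasts, differed by 0.13 and did not pass (limma adjusted p = 0.541).

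Relative to Pdgfra, Pi16 was higher in TAC by 1.65, Medag by 0.90 and Cd34 by 0.60, while Dpep1 differed by -0.89, Clec3b by -0.67 and Htra3 by -0.53. Each of these 6 had a two-sided exact permutation p of 0.00794, the smallest that 126 splits of the arrays can give. Pdgfra itself differed by 0.04 and these 6 did not overlap between the groups, so this result adds little to the limma calls. Adjusted over all genes the exact permutation p was 0.0481, and 31.7% of all genes had an exact permutation p below 0.05 relative to Pdgfra. Dpp4 (-0.29, exact permutation p = 0.111), Dpt (-0.05, exact permutation p = 0.341) and Gsn (-0.05, exact permutation p = 0.381) did not pass. With the mean of the 3 Pdgfra probe sets in its place, an alternative chosen after seeing the data, the differences were 1.48 for Pi16, 0.73 for Medag, 0.43 for Cd34, -1.06 for Dpep1, -0.84 for Clec3b and -0.70 for Htra3. Dpp4 then differed by -0.46, with an exact permutation p of 0.00794. The test compares changes on the same arrays and says nothing about the amount of one transcript against another.

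Of 26 other genes used as markers of resting or adventitial fibroblasts, 15 rose, 5 fell and 6 did not pass, with a median difference of 0.43. Mfap5, a microfibril gene, rose by 2.39 (limma adjusted p = 9.15e-06), Fndc1 by 1.601 (3.64e-05), Pdgfrl by 1.37 (3.29e-05) and the collagen gene Col15a1 by 1.11 (4.86e-05). The genes that fell were the enkephalin precursor gene Penk (-2.79, limma adjusted p = 2.49e-06), the ferritin receptor gene Scara5 (-2.37, 1.43e-06), the BMP regulator gene Bmper (-1.07, 7.57e-05), Gas1 (-0.71, 0.000747) and Cxcl12. Members of this wider list therefore went both ways, as the 9 markers did.

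Of 14 activated fibroblast genes 12 rose, 1 fell and 1 did not pass, with a median difference of 2.77. Comp, a cartilage matrix gene, rose by 4.53 (limma adjusted p = 1.84e-05), Thbs4 by 3.64 (1.31e-05), the lysyl oxidase gene Lox by 3.27 (3.64e-06), Col8a1 by 3.10 (1.08e-05), Cthrc1 by 2.43 (2.41e-05) and Ddah1 by 1.45 (9.65e-06). Acta2, the smooth muscle actin gene, fell by 0.53 (0.00154). The lists were chosen with earlier results of these arrays known, and no test between lists was made.

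**Figure D3:**
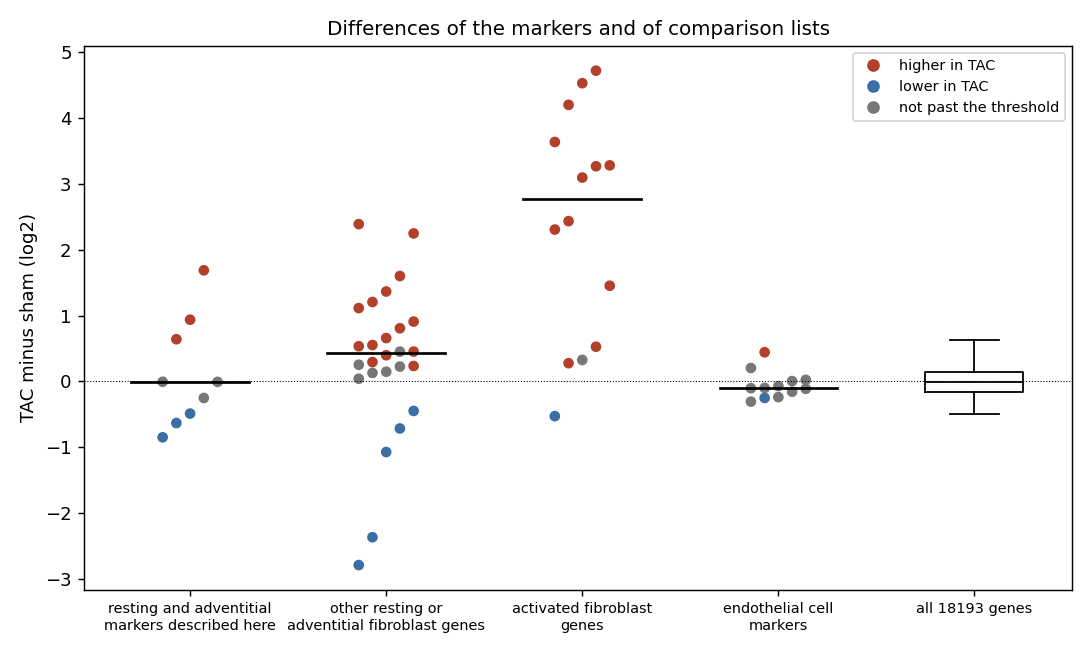
Difference between TAC and sham on the log2 scale, a point per gene, for the 9 markers and for 3 lists read beside them, with black lines at the medians (-0.01, 0.43, 2.77 and -0.10). The box on the right shows all 18193 genes (median and quartiles, whiskers at the 5th and 95th percentiles). The markers spread to both sides of 0, and nearly all activated fibroblast genes lie above it.

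Markers of other cells that could add to these readings were read as lists. Of 11 leukocyte genes 4 rose and the other 7 did not pass. Those that rose were the macrophage genes Adgre1 (0.97, limma adjusted p = 0.00014), C1qa (0.70, 0.00166) and Csf1r (0.39, 0.0226), and Ptprc (0.78, 0.0138). The mean of that list was 7.63 to 7.999 on TAC arrays and 7.23 to 7.65 on sham arrays, ranges that barely overlap, and its part in the differences of the markers was not tested. Mesothelial genes, from the cells that cover the heart, were called in 0 of 7 cases in limma, with 1 at an unadjusted p below 0.05, and 5 of the 7 lay below the array median. Their mean was 5.75 to 6.72 in TAC and 5.73 to 6.34 in sham. Among 9 genes of smooth muscle cells and pericytes, Abcc9 (-0.69, limma adjusted p = 3.64e-05), Myh11 (-0.59, 0.0107), Acta2 and Kcnj8 (-0.34, 0.00619) fell, Pdgfrb rose by 0.25 (0.0215) and 4 did not pass. The mean of these 9 genes was 9.95 to 10.19 on TAC arrays and 10.10 to 10.32 on sham arrays, so that the groups overlapped. Of the Schwann cell genes, Kcna1 averaged 5.07 in TAC and 6.83 in sham and fell by 1.77 (limma adjusted p = 3.83e-05), and Sox10, at 5.91 in TAC and 5.93 in sham, did not pass.

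Relatives of the marker genes were also read as a list of 27 measured genes, of which 9 rose, 2 fell and 16 did not pass, with a median difference of 0.13. Beside those given with their relatives above, Crispld1 and Crispld2, which encode secreted proteins of the CAP superfamily as Pi16 does, rose by 1.44 (limma adjusted p = 7.71e-05) and 0.53 (0.00192). Of the Glipr genes of the same superfamily, Glipr2 rose by 0.61 (limma adjusted p = 0.0127). Glipr1 differed by -0.16 and did not pass (0.250). Fap, a fibroblast protease gene related to Dpp4, rose by 0.28 (0.0235), while Dpp8 and Dpp9, which encode relatives inside the cell, differed by 0.14 and -0.03 and did not pass.

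For each called marker with a difference of at least 0.5, the closest profiles among 16428 other genes were found by the root mean square distance of values after subtraction of the sham mean, over all 9 arrays. Pi16 was closest to Fstl1 (distance 0.08), a secreted glycoprotein gene, which averaged 12.33 in TAC and 10.63 in sham, and next to Itih5 (0.09), a hyaluronan-binding protein gene. Medag was closest to Camta1 and to Tgfbr1, the type I TGF-beta receptor gene, both at 0.08. Cd34 was closest to Col4a2, a basement membrane collagen gene, and Rgs19, both at 0.06. Clec3b was closest to Hint3 (0.06) and Echdc3 (0.07), and Dpep1 to Trmt5 (0.08) and Tbc1d16 (0.09). The distance reflects mainly the size of the difference between the groups.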

How the data were processed

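Per the labels' protocols, Trizol was used on frozen left ventricle, and biotin-labelled RNA went on the arrays. The authors deposited log2 values, which the submitters' processing notes give as RMA without a version. All 9 columns hold the same sorted values, so a general shift of RNA cannot be seen. The number of arrays limits the precision. A genome build for the probes was not used here.

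Of 45101 probe sets, 64 were controls, 34945 had 1 symbol, 932 had several and 9160 were not listed in the platform annotation. Gene IDs of 34741 matched the reference table, and no symbol changed. The brightest of a gene's probe sets stood for it, with no filter on dim genes. Limma 3.58.1 in R 4.3.3 (lmFit, eBayes, no covariate) compared TAC with sham with 7 residual and 3.27 prior degrees of freedom, over 18193 genes and separately over 45037 probe sets. Changes relative to Pdgfra used a two-sided exact permutation test over 126 splits, here adjusted over all genes. Figures came from matplotlib 3.10.9, and tables from pandas 2.3.3 and numpy 2.4.6 in Python 3.11.15.

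In simulated arrays of 18193 genes with 200 changed, limma called 55.2% of the genes changed by 0.5, 95.5% of those changed by 1 and 100% of those changed by 2, with 5 of 172 calls on unchanged genes, and made 0 calls when no gene was changed. The share of changed genes differs from the data, where 4565 genes were called, so these percentages are not the sensitivity of the reported fit.

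The markers and lists were chosen with earlier results of these data known. Named were all markers, up to 6 called genes of each list by smallest p, members that complete counts of 5 or fewer, and the 2 closest profiles. Relatives named as not passing, and Cd3e, Cd4, Cd8a, Fap and Glipr2, were chosen after their values were seen. The alternatives were the mean of probe sets, probe sets without an _x, _s or _a suffix where available, and only the brighter genes. Others were a variance trend with robust fitting, array weights, median centring, cyclic loess, leaving out each array, and a stricter adjusted p of 0.01.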

Additional observations from a re-analysis of the deposited data

Results flagged for a closer look

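Among 44 groups of values (22 probe sets in TAC and in sham), 3 held an array far from the others by Dixon's test, where chance gives about 1 in 20. Cd34 in sham replicate 2 was 10.5, with the other 4 sham arrays between 10.91 and 11.08. Htra3 at 1419292_at in TAC replicate 3 was 11.03, with the other 3 TAC arrays between 11.24 and 11.27. Dpp4 at the dim probe set 1438279_at in TAC replicate 3 was 5.55, with the others between 5.04 and 5.10.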

How the results depend on the processing

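Under every alternative run, 3 of the 9 markers rose and 3 fell, with the same genes called each time. Leaving out 1 array gave Pi16 1.56 to 1.76, Medag 0.89 to 0.99, Cd34 0.54 to 0.69, Dpep1 -0.92 to -0.80, Clec3b -0.68 to -0.58 and Htra3 -0.54 to -0.43. With the mean of its probe sets Htra3 was -0.26, against -0.49, and Pi16 was 1.44, against 1.69. Pi16 was 1.20 where probe sets with an _x, _s or _a suffix were left out. Dpp4, not past the threshold of limma in any of these, was -0.15 with the mean of its probe sets, -0.14 with array weights, -0.38 without TAC replicate 2 and -0.04 without TAC replicate 4. At an adjusted p below 0.01 the count of all genes called was 2608, against 4565. With centring on the median, 1978 genes were higher and 2907 lower, so that 40.5% of calls were higher against 51.1%. Relative to Pdgfra, 6 or 7 of 9 markers had an exact permutation p below 0.05 when 1 array was left out. The direction of markers near 0 turned, none past the threshold. Dpt became 0.037 with array weights and 0.025 with cyclic loess (0.032 and 0.014 among all probe sets), and ranged from -0.051 to 0.035 without 1 array. Gsn became 0.0143 with the mean of its probe sets, 0.0143 with array weights and 0.026 with cyclic loess, and ranged from -0.028 to 0.014 without 1 array. Among all probe sets, 1437171_x_at of Gsn became 0.013 and 0.0155 and 1436991_x_at 0.00358 and 0.00372 with array weights and cyclic loess, and 1441342_at of Dpp4 became 0.00300 with array weights. Without 1 array, 1456312_x_at of Gsn ranged from -0.013 to 0.051, 1456569_x_at of Gsn from -0.012 to 0.081, 1459973_x_at of Dpp4 from -0.066 to 0.17 and 1431762_at of Htra3 from -0.037 to 0.18. The cause was not tested. No paired analysis was possible because the labels give no replicate numbers shared by the groups. Dim probe sets, such as those of Dpp4 near 5, limit what can be seen.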
